A study of Mus musculus with 7 samples.

Results

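Cycling cells of the mouse stomach epithelium were chosen by the UMIs of mitotic genes in each well, as the wells that carried transcripts of several of them. The gland of the gastric corpus renews itself from the isthmus, a zone of dividing cells between pit and gland base. Daughters that move up become surface mucous pit cells, and daughters that move down become mucous neck, zymogenic chief, acid-secreting parietal or endocrine cells. A cell in S phase copies its DNA with the MCM helicase, PCNA and ribonucleotide reductase, and in G2 and M phase it makes the cyclins, spindle motors and chromosome passenger proteins of division. The tables give no position in the gland, so the wells are called cycling wells here, and their place in the isthmus was not measured.

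The data came from untreated wild-type C57BL/6 mice by SORT-seq, in which a sorter places 1 living, DAPI-negative cell in each well of a 384-well plate and the CEL-seq2 chemistry counts transcripts by unique molecular identifiers (UMIs). There were 4 plates labelled corpus, the acid-producing body of the stomach, and 3 labelled pylorus, its outlet. The labels give no age and tie no plate to an animal, and p-values therefore measure the spread between plates. Of 2688 wells, 2235 held at least 1000 UMIs without spike-ins and were kept. A kept well was cycling if at least 4 of 10 genes (Mki67, Top2a, Ube2c, Ccna2, Cdk1, Birc5, Cenpf, Ccnb1, Prc1 and Nusap1) had at least 1 UMI. This chose 314 cycling wells and left 1921 other wells. Cycling wells numbered 175 of 1252 kept wells in the corpus plates and 139 of 983 in the pylorus plates. The plates are named by their labels below, and some transcripts went against them: Gast, the hormone of antral G cells, had 57.4 CPM (the counts scaled to a total of 1000000 UMIs) in cycling wells and 2246 CPM in other wells of the library labelled corpus replicate 1, and no UMI in the other 6 plates. That library also held the highest Gkn3 and Nkx6-3 of the series, and results between the regions are given with and without it. It and pylorus replicate 1 were the shallowest plates, with medians of 6899 and 8240 UMIs per kept well, against 19648 to 25545 in the other 5.

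The 10 genes that chose the wells are given as a description, with no test. Mki67, the Ki-67 antigen of dividing cells, had 314, 371 and 672 CPM in cycling wells (lowest, median and highest of 7 plates, as in each such triplet below) and 5.42, 11.3 and 29.5 CPM in other wells. Top2a, the topoisomerase that untangles chromosomes, had 207, 316 and 503 CPM in cycling wells and 4.16, 8.13 and 22.0 CPM in other wells. Ube2c, which passes ubiquitin to mitotic cyclins, had 137, 211 and 540.4 CPM and 1.45, 5.12 and 31.6 CPM in those wells. Ccna2, cyclin A2, had 91.2, 122 and 343 CPM in cycling wells and 1.23, 1.67 and 11.7 CPM in other wells. Over all plates, 88.2% of cycling wells and 14.9% of other wells held a UMI of Mki67. Wells with Chga at 0.5% or more of their UMIs, taken as endocrine cells outside the cycle, held one in 7.77% of 296 wells, at a median of 10886 UMIs against 28950 in cycling wells. Nusap1, a spindle microtubule protein, was the rarest of the 10, with a UMI in 36.0% of cycling wells and 1.46% of other wells. None of the 296 Chga-rich wells met the rule, which allows a share of up to 1.01% (3 counts), and the most rule genes such a well held was 3. Of 143 wells with Atp4a and Atp4b at 0.5% or more of their UMIs, the proton pump subunits of parietal cells, 9 were cycling (6.29%, 95% Wilson interval 3.35% to 11.5%), and 2 of these held at least 6 rule genes.

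Wells with all 10 genes held a median of 174 UMIs of them, or 48.3 per 10000 UMIs, and there were 64 such wells. The 84 wells just inside the threshold, with 4 genes, held a median of 5 UMIs of them (1.93 per 10000), and the 173 wells just outside, with 3 genes, held 4 (1.28 per 10000). Hmgb2, a chromatin protein, and Stmn1, a microtubule regulator, mark cycling cells but were not used by the rule. Together they held a median of 10.3 UMIs per 10000 in the 108 wells with 8 to 10 rule genes. The median was 5.33 in the 60 wells with 6 or 7, 1.24 in the 146 wells with 4 or 5, and 0.506 in the wells with 3. By this measure the wells with 4 or 5 rule genes lay nearer to the wells left out than to the 108 strongest, and values for stricter rules stand beside the results that they change. Depth moved with membership, and its part in the results was not tested beyond thinning: the median cycling well held 11437 UMIs against 5565 in other wells of corpus replicate 1, 37502 against 24443 in corpus replicate 4 and 33751 against 18054 in pylorus replicate 2, while pylorus replicate 1 differed little (8487 against 8216). After each well was thinned to 3000 UMIs, 110 of 2041 wells met the rule.

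Most of the genes that chose the wells, and most others of G2 and M phase, share letters in their promoters. The promoters are those of RefSeq on GRCm38.p6, from 250 bases before to 50 after each gene's start, and were matched by symbol for 35 of 42 genes of a G2 and M phase list. CCAAT was searched on both strands, as was TTTGAA, the core of the cell cycle homology region that repressor and activator complexes of mitotic genes are known to bind. CCAAT was present in 27 of the 35 (77.1%), against 37.8% of all 27025 promoters, and TTTGAA in 26 (74.3%), against 18.1%. Both occurred in 23 (65.7%), against 7.01%. Of 9 rule genes with a promoter, 7 held CCAAT (77.8%) and 6 held TTTGAA (66.7%). Among 32 promoters of an S phase list, 18 held CCAAT (56.3%) and 3 held TTTGAA (9.38%). A match is a description of the letters only. The 150 bases before the start are shown for 3 rule genes and for Iqgap3, a reported isthmus marker described below. They run 5′ to 3′ on the gene's strand, with the letters of either motif in capitals.
Top2a (chr11:99024190-99024339, minus strand): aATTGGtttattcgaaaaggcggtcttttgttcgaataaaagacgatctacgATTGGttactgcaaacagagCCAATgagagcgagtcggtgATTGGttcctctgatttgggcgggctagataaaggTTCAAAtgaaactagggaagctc
Ube2c (chr2:164769779-164769928, plus strand): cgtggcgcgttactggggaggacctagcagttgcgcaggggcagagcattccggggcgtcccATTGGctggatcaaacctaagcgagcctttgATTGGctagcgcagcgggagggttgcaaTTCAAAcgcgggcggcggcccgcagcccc
Ccnb1 (chr13:100786487-100786636, minus strand): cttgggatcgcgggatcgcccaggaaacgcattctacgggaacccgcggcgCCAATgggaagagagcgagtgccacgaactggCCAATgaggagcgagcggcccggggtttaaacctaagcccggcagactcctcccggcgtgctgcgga
Iqgap3 (chr3:88081901-88082050, plus strand): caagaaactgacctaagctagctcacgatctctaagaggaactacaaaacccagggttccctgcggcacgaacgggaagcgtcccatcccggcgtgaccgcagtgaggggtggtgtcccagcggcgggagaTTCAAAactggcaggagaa
In these 150 bases Top2a held 4 CCAAT and 1 TTTGAA, Ube2c 2 and 1, Ccnb1 2 and none, and Iqgap3 none and 1.

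Other cell cycle genes followed the rule genes and are also given without a test, since the rule picked wells in the cycle. Of 41 genes of the G2 and M phase list that were tested, all were higher in cycling wells, with a median log2 difference of 3.61 and a range of 1.73 to 4.43, against a median of -0.06 over all 9447 genes. The 38 genes of the S phase list had a median of 1.61 (0.31 to 3.54). Tk1, the thymidine kinase of S phase, had 82.4, 106 and 197 CPM in cycling wells and 1.81, 5.81 and 13.1 CPM in other wells. Rrm2, a subunit of ribonucleotide reductase, had 39.5, 85.5 and 164 CPM in cycling wells and 4.16, 6.43 and 23.4 CPM in other wells. Hmgb2 had 195, 296 and 658 CPM and 21.5, 26.2 and 70.8 CPM in those wells, and Stmn1 213, 258 and 484 CPM and 10.8, 31.5 and 39.8 CPM. Within single wells, the G2 and M list exceeded the S list in 186 of 314 cycling wells, and the reverse held in 119. Among the 108 wells with 8 to 10 rule genes the G2 and M list was higher in 86, and in the 146 wells with 4 or 5 it was higher in 57. The 10 genes of the rule act mostly in G2 and M, so this split is set in part by the choice of wells.

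The share of kept wells that were cycling varied over the plates by more than the regions differed. By replicate number, the corpus plates held 29.9%, 3.23%, 8.31% and 15.9% cycling wells, and the pylorus plates held 6.80%, 19.2% and 14.1%. The corpus plates span the pylorus plates at both ends. The means were 14.3% ± 11.6 in the corpus plates (SD, n = 4) and 13.4% ± 6.25 in the pylorus plates (SD, n = 3), a difference of 0.941 percentage points (exact two-sided permutation test over 35 splits, p = 0.914). Without corpus replicate 1 the difference was -4.24 points. With wells thinned to 3000 UMIs, the shares were 21.2%, 1.18%, 2.56% and 3.40% in the corpus plates and 5.39%, 4.61% and 4.78% in the pylorus plates. Thinned, the 3 pylorus plates lay within a point of each other, and corpus replicate 1 stood above all other plates.

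**Figure D1:**
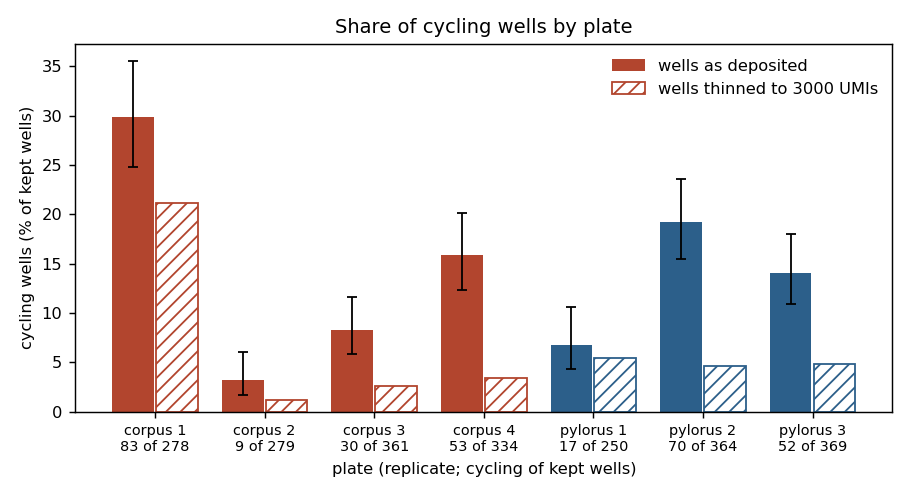
Bars give the percent of kept wells that were cycling in each plate, filled for wells as deposited (error bars: 95% Wilson intervals, counting error only) and hatched for wells thinned to 3000 UMIs; red is corpus and blue is pylorus. Corpus replicate 1 is highest in both, at 29.9% and 21.2%, and corpus replicate 2 lowest, at 3.23% and 1.18%.

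Endocrine genes and most tuft genes fell in cycling wells, as did 3 of 4 neck genes and 2 of 6 chief genes, while 7 of 8 pit genes did not pass. For the tests, UMIs were summed over the cycling and over the other wells of each plate, and the difference was taken within plates, over the 6 plates with at least 10 cycling wells (corpus replicate 2 held 9). From such sums alone, fewer wells carrying a transcript and less transcript per well cannot be told apart. Single wells are described further below. Of 9447 genes tested by limma, 1069 rose in cycling wells (11.3%) and 1033 fell (10.9%) at an adjusted p under 0.05. The 10 rule genes were not tested. Other cell cycle genes stayed in the fit, and the 1069 include 41 of the G2 and M phase list, 37 of the S phase list and 21 of a chromatin and tubulin list. The number of rises is therefore set in part by the choice of wells. Scaled to total UMIs instead of TMM, which moved the median of all genes by 0.14 on the log2 scale, 1646 rose and 657 fell, so that 71.5% instead of 50.9% of the calls were rises. With wells thinned to 3000 UMIs, which tests 3921 genes in 5 plates and has a median of -0.56 over all of them, 67 rose and 187 fell. The CPM printed are scaled to all UMIs of the wells summed.

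**Figure D2:**
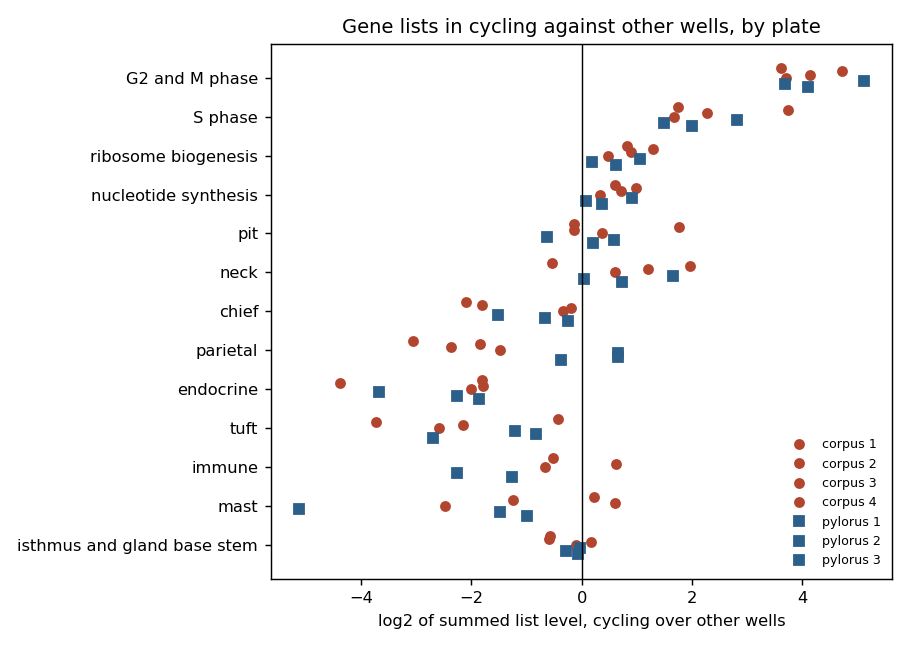
Each point is the log2 ratio of the summed level of a gene list in cycling wells over that in other wells of 1 plate (circles, corpus; squares, pylorus); plates in which a list has no UMI in cycling wells are not drawn. The cell cycle lists lie right of 0 because of the rule, the endocrine, chief and tuft lists lie left of 0 in every plate, and the pit list lies on both sides.

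Cycling wells carried pit transcripts at high levels, and most of them did not pass. Of 8 pit genes tested, 1 rose and none fell, with a median log2 difference of -0.11. Muc5ac, the gel-forming mucin of the stomach surface, rose and had 488, 1289.8 and 2528 CPM in cycling wells and 162, 713 and 1955 CPM in other wells (log2 difference 0.45 ± 0.12 SE, adjusted p = 0.0267). It was higher in 7 of 7 plates. It did not pass without corpus replicate 3 (0.43) or 4 (0.42) or pylorus replicate 2 (0.42) or 3 (0.37), or when wells with immune or mast transcripts were left out (log2 difference 0.04, adjusted p = 0.928). That setting dropped wells with UMIs of more than 1 such gene. It kept 103 of 361 wells in corpus replicate 3 and 72 of 369 in pylorus replicate 3, but 262 of 278 in corpus replicate 1. Corpus replicate 3 and pylorus replicate 3 then held too few cycling wells and left the fit. With wells thinned to 3000 UMIs Muc5ac was at -0.15 and did not pass, where the median of all genes was -0.56. Tff1, the trefoil peptide secreted with that mucin, had 22055, 27045 and 41796 CPM in cycling wells and 5019, 25028 and 30338 CPM in other wells, a log2 difference of 0.03 ± 0.19 SE (adjusted p = 0.922). Gkn1 and Gkn2, gastrokines of the surface mucous cell, differed by -0.25 ± 0.25 SE and -0.23 ± 0.23 SE, and Ctse, the aspartic protease cathepsin E, by 0.01 ± 0.14 SE. Gkn2 was higher in cycling wells of 4 plates and lower in 3. Capn8, a calpain of mucous cells, was at -1.005 ± 0.34 SE and Psca, a surface antigen, at -0.57 ± 0.30 SE, and neither passed. Corpus replicate 2 differed from the rest: its cycling wells held 59287 CPM of the pit list and its other wells 17408 CPM, the widest gap of the 7 plates.

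The neck list split: 3 of its 4 members fell, and the other, Tff2, did not pass. Muc6, the gland mucin of neck cells, had 94.5, 11.2, 35.3 and 43.0 CPM in cycling wells of the corpus plates and 14.1, 8.66 and 14.4 CPM in those of the pylorus plates, against 517, 224, 151 and 177 CPM and 164, 67.2 and 50.8 CPM in other wells. Every plate was lower in cycling wells, by a log2 difference of -2.52 ± 0.21 SE (adjusted p = 1.31e-05). A4gnt, the enzyme that caps the glycans of that mucin, fell by 1.69 on the log2 scale (adjusted p = 3.44e-04). Gkn3, a gastrokine of mucous neck cells in mice, had 11.2, 18.8 and 975 CPM in cycling wells and 70.4, 195 and 7069.8 CPM in other wells, and fell by 2.46 on the log2 scale (adjusted p = 2.88e-04). All 3 were lower in 7 of 7 plates. Tff2, the spasmolytic trefoil peptide of the neck, had 20291, 13696, 10254 and 8192 CPM in cycling wells of the corpus plates and 20278, 7497 and 9113 CPM in those of the pylorus plates, against 23336, 2478, 4096 and 4867 CPM and 5933, 7008 and 5328 CPM in other wells. It was higher in cycling wells of 6 plates and lower in corpus replicate 1, with a log2 difference of 0.60 ± 0.20 SE (adjusted p = 0.0574). It passed without corpus replicate 1 (0.79), without pylorus replicate 2 (0.70), with total UMIs as the scale (0.75) and with at least 6 rule genes (0.60). Its difference was smaller with at least 8 rule genes (0.39), without pylorus replicate 1 (0.46) and without wells holding immune or mast genes (0.45). After thinning Tff2 was at 0.04, where the median of all genes was -0.56. Most UMIs of the neck list were Tff2, and the sum of the list was higher in cycling wells of 6 plates.

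**Figure D3:**
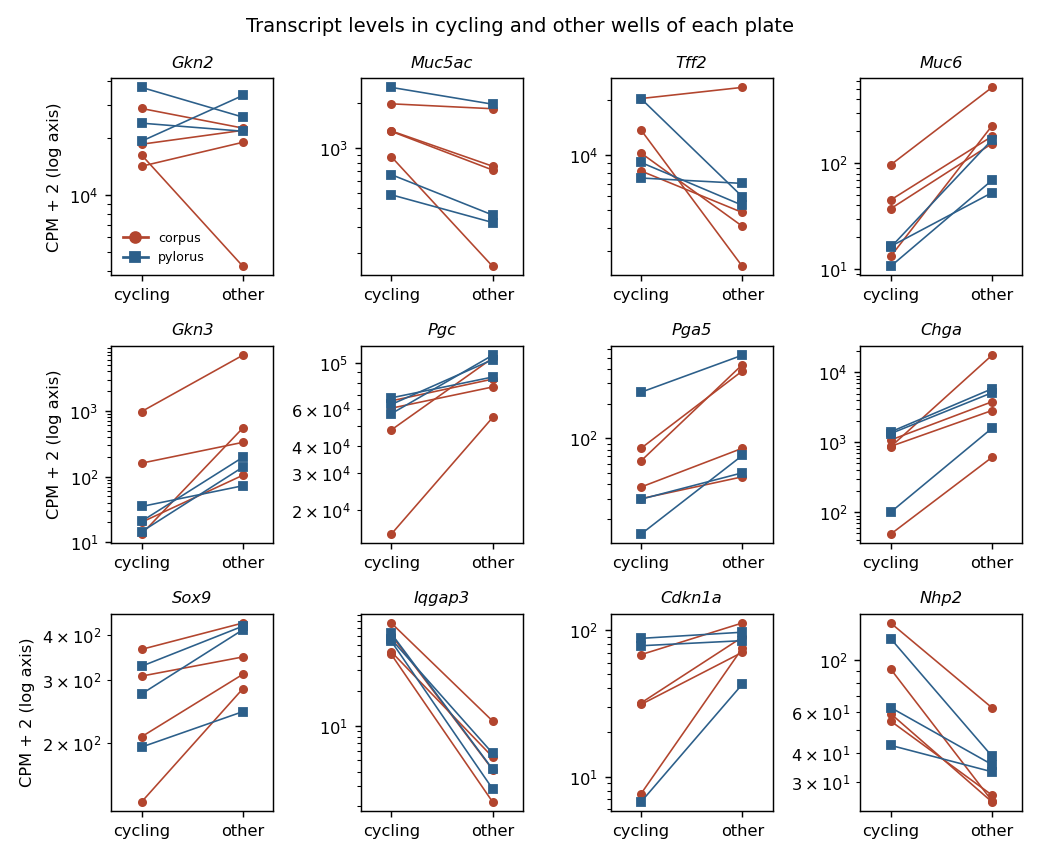
Each panel gives 1 gene, with the CPM + 2 (log axis) in cycling wells at left and in other wells at right; a line joins the values of 1 plate (circles, corpus; squares, pylorus). Muc6, Gkn3, Pgc, Pga5, Chga, Sox9 and Cdkn1a are lower in cycling wells of every plate, Muc5ac, Iqgap3 and Nhp2 are higher in every plate, and Gkn2 and Tff2 cross.

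Chief transcripts were lower in cycling wells. Of 6 tested, 2 fell and none rose, with a median log2 difference of -1.35. Pgc, pepsinogen C, had 15290.4, 47833, 60704 and 65774 CPM in cycling wells of the corpus plates and 57136, 63222 and 67984 CPM in those of the pylorus plates, against 54834, 105089, 76585 and 83480.3 CPM and 108461, 103309 and 85404 CPM in other wells. It was lower in every plate, by -0.90 ± 0.26 SE (adjusted p = 0.0327), and it passed by little: not without corpus replicate 1 (-0.68), 3 (-0.95) or 4 (-0.98) or pylorus replicate 1 (-0.80) or 3 (-1.002), not in the 4 deep plates of the fit alone (corpus 3 and 4 with pylorus 2 and 3, -0.50) and not with total UMIs as the scale (-0.75). Pga5, pepsinogen A, had 12.8, 35.9 and 249.1 CPM in cycling wells and 44.4, 80.1 and 524 CPM in other wells and fell by 1.497 on the log2 scale (adjusted p = 4.67e-04). Gif, intrinsic factor, was lower in 5 plates and higher in 2, at -1.40 ± 0.58 SE (adjusted p = 0.112). It moved widely with the wells and plates taken. With at least 6 rule genes it was at -3.23 and passed (adjusted p = 3.55e-04). With at least 3 it was at -0.50 and did not pass. That fit had 7 plates, since corpus replicate 2 then held 14 cycling wells. In the 4 deep plates alone Gif was at -0.085 and did not pass. Chia, an acid chitinase, was at -1.29 ± 0.60 SE and Clps, colipase, at -1.62 ± 0.55 SE, and neither passed.

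Cycling wells rich in chief transcripts were mostly those with few rule genes. Chief transcripts made up 20% or more of the UMIs in 34 cycling wells, a limit chosen after the wells were seen. Of these, 31 held 4 or 5 rule genes, which is 21.2% of the 146 wells of that kind. Only 1 of 108 wells with 8 to 10 rule genes was of this kind (0.926%). They were 9 of 175 cycling wells in the corpus plates (5.14%) and 25 of 139 in the pylorus plates (18.0%). The 175 include 83 wells of corpus replicate 1, none of which reached the limit (highest chief share 17.9%). These shares pool wells over plates, and the difference between the regions was not tested. The chief-rich wells held a median of 35111 UMIs, against 28950 in all cycling wells, and the part of depth in their meeting the rule was not tested. Pit transcripts made up 10% or more of the UMIs in 88 cycling wells, a limit also chosen after the wells were seen: 26.0% of wells with 4 or 5 genes, 30.0% with 6 or 7 and 29.6% with 8 to 10. With wells thinned to 3000 UMIs and set against the 90th percentile of other wells of their plate, 5.56% of wells with 8 to 10 rule genes and 12.7% of those with 4 to 7 were high in pit transcripts, so the order depends on the measure. No cycling well was rich in both, and other wells were not counted by these limits. A floor of chief transcripts was present in some plates: the lowest chief share of any cycling well was 0.419% in corpus replicate 1, but 2.97% to 4.73% in the other 6 plates. Whether RNA is shared between the wells of a plate was not tested, and no doublet caller was run.

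**Figure D4:**
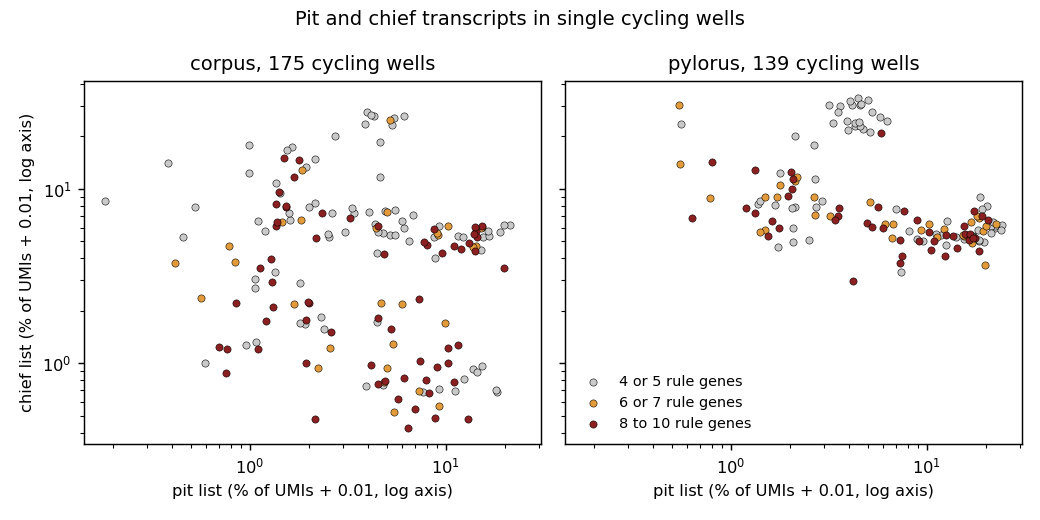
Each point is 1 cycling well, with the percent of its UMIs in the pit list (horizontal) and in the chief list (vertical), both plus 0.01 on log axes, for corpus plates at left and pylorus plates at right; colour gives the number of rule genes. The wells above 20% chief transcripts are nearly all pale (4 or 5 rule genes), and no well is high in both lists.

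Parietal transcripts were lower in cycling wells of all 4 corpus plates, and no parietal gene passed. Atp4a, the catalytic subunit of the proton pump, had 17.8, 5.61, 98.5 and 243 CPM in cycling wells of the corpus plates, against 690.5, 519.7, 1130.4 and 805 CPM in other wells. In the pylorus plates it had 179, 398 and 336 CPM in cycling wells, against 148, 208 and 475 CPM in other wells. Its log2 difference over the 6 plates was -1.75 ± 0.67 SE (adjusted p = 0.0853). Atp4b, the other subunit, was at -1.57 ± 0.52 SE (adjusted p = 0.0543). With at least 8 rule genes both passed, Atp4a at -3.57 and Atp4b at -2.86, in 5 plates. Both also passed without pylorus replicate 1 (-2.06 for Atp4a and -1.65 for Atp4b) or pylorus replicate 2 (-2.29 for Atp4a and -2.04 for Atp4b). Neither passed with at least 3 rule genes (-0.042 for Atp4a and -0.64 for Atp4b), a fit of 7 plates that took in corpus replicate 2. Nor did they pass against other wells with none of the rule genes (-0.83 for Atp4a and -0.98 for Atp4b). The same held without corpus replicate 1 (-1.06 for Atp4a and -0.97 for Atp4b). All 7 parietal genes tested had values below 0, with a median of -0.90.

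Endocrine genes had the lowest median of the cell type lists. All 8 tested fell in the sums over wells, with a median log2 difference of -2.82, and endocrine levels in single wells are given below. Chga, chromogranin A, had 46.9, 864, 876 and 1079.6 CPM in cycling wells of the corpus plates and 98.7, 1413 and 1335 CPM in those of the pylorus plates, against 611, 17639, 2855 and 3809.8 CPM and 1596, 5839 and 5129 CPM in other wells. It fell by 2.67 on the log2 scale (adjusted p = 1.86e-04). Its level in cycling wells was lowest in corpus replicate 1 and pylorus replicate 1, the shallow plates. Chgb, chromogranin B, fell by 4.30 (adjusted p = 4.78e-06), Scg5, a chaperone of prohormone convertase, by 3.16 (adjusted p = 1.61e-05), Ghrl, the ghrelin precursor, by 2.97 (adjusted p = 3.90e-04), and Hdc, which makes histamine, by 2.97 (adjusted p = 1.40e-05). Of the genes outside the lists with the largest falls, Slc18a2, the vesicular monoamine transporter, fell by 4.02, and Cpe, a carboxypeptidase of prohormones, by 3.09. Insm1, a factor of endocrine differentiation, had 0.904, 1.73 and 9.40 CPM in cycling wells and 11.7, 20.2 and 85.0 CPM in other wells and fell by 2.46 (adjusted p = 9.03e-04).

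Tuft transcripts fell in 4 of 5 genes tested. Dclk1, a kinase that marks tuft cells, had 0, 6.33 and 25.2 CPM in cycling wells and 20.6, 49.3 and 174 CPM in other wells (log2 difference -2.72 ± 0.31 SE, adjusted p = 1.29e-04). Trpm5, a cation channel of taste signalling, fell by 2.49, Rgs13, a regulator of G protein signalling, by 3.26, and Alox5ap, which serves leukotriene synthesis, by 2.48. Immune and mast cell transcripts were also lower: 2 of 5 immune genes and 3 of 5 mast genes fell and none rose. Ptprc, the leukocyte antigen CD45, had 0, 3.76 and 15.9 CPM in cycling wells and 2.06, 12.9 and 43.0 CPM in other wells and fell by 1.41 (adjusted p = 0.00283). Mcpt1, a mast cell protease, fell by 1.80 (adjusted p = 0.0199), with no UMI in cycling wells of corpus replicate 2 and pylorus replicate 1 and 253 CPM in those of corpus replicate 3, which was above its other wells. It did not pass without corpus replicate 4 (-1.60) or pylorus replicate 2 (-1.58). With a higher minimum of UMIs per well, each immune and mast gene that fell differed by less. Ptprc moved from -1.41 to -0.74 and Laptm5, another immune gene, from -1.32 to -0.13. Of the mast genes, Mcpt1 moved from -1.80 to -1.11, Kit from -1.84 to -1.36 and Cpa3 from -1.62 to -0.56. The size of these falls thus depended on the minimum depth of the wells. The immune list summed to 0 to 95.8 CPM in cycling wells and 9.58 to 148 CPM in other wells. The mast list summed to 2.81 to 1144 CPM in cycling wells and 6.69 to 1033 CPM in other wells. With wells thinned to 3000 UMIs, the immune and mast lists were higher in cycling wells of 4 plates each. Of 6 stromal genes 1 was high enough to test and did not pass, and squamous and red blood cell genes were too low to test.

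Genes reported to mark isthmus or gland base stem cells did not move together. Of 14 tested, 2 rose and 5 fell, with a median log2 difference of -0.34. Iqgap3, a scaffold protein reported in mice as a marker of dividing isthmus stem cells, had 75.1, 39.3, 58.8 and 41.5 CPM in cycling wells of the corpus plates and 51.7, 53.8 and 60.6 CPM in those of the pylorus plates, against 8.93, 0.181, 2.14 and 3.34 CPM and 0.832, 3.75 and 2.19 CPM in other wells. Its log2 difference was 3.41 ± 0.20 SE, and no other member rose by as much. As a marker of dividing cells it is tied to the rule that chose the wells. It is therefore a description here, though counted among the 2 that rose, and does not place the wells in the isthmus. Lgr4, a receptor for R-spondin, rose by 0.27 ± 0.08 SE (adjusted p = 0.0341), but did not pass without corpus replicate 1 (0.24), 3 (0.29) or 4 (0.28) or pylorus replicate 2 (0.25) or 3 (0.27). Sox9, a transcription factor of progenitor cells, had 135, 272 and 363 CPM in cycling wells and 243, 346 and 431 CPM in other wells and fell by 0.54 (adjusted p = 6.30e-04), in 7 of 7 plates. Aqp5, a water channel of antral gland base cells, fell by 1.91 (adjusted p = 0.00255). Cckbr, the gastrin receptor, fell by 1.85 (adjusted p = 2.15e-04), and Lrig1, a brake on growth factor receptors, by 0.77 (adjusted p = 0.0292). Lrig1 did not pass without corpus replicate 1 (-0.73), 3 (-0.54) or 4 (-0.72) or pylorus replicate 2 (-0.78). Lgr5, the gland base stem cell receptor, was at -1.23 ± 0.45 SE (adjusted p = 0.0732). Runx1, Sox2 and Cd44 were at -0.27 ± 0.16 SE, -0.32 ± 0.15 SE and -0.20 ± 0.26 SE, and none of these passed.

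Of 18 lineage factors of the epithelium tested, 1 rose and 5 fell, with a median log2 difference of -0.07. Klf4, a factor of surface epithelial cells, had 589, 709.5 and 905 CPM in cycling wells and 177, 469 and 676 CPM in other wells and rose by 0.43 ± 0.11 SE (adjusted p = 0.0155), though not past the threshold without corpus replicate 4 (0.37). Spdef, which drives mucous secretory differentiation, fell by 1.04 (adjusted p = 8.91e-04), Creb3l4, a factor of the secretory pathway, by 1.17 (adjusted p = 0.00152), and Xbp1, which builds the endoplasmic reticulum of chief cells, by 0.56 (adjusted p = 0.0103). Isl1, a homeobox factor of endocrine cells, fell by 0.72 (adjusted p = 0.0124). Gata4, Gata6, Foxa2 and Hnf4a, factors shared by gastric epithelial cells, were at 0.14 ± 0.07 SE, 0.01 ± 0.07 SE, 0.03 ± 0.10 SE and -0.04 ± 0.10 SE, and none of these passed. Of 6 factors of regional identity, Pitx1 rose by 0.47 (adjusted p = 0.0300), did not pass without corpus replicate 1 (0.40), 3 (0.47) or 4 (0.50) or pylorus replicate 2 (0.49), and was at -0.65 after thinning, where the median of all genes was -0.56. Among 6 mucosal defence genes, Dmbt1, a scavenger receptor of mucosal surfaces, rose by 0.68 (adjusted p = 0.0156), and Amotl1, listed with them, and Bpifb1 fell by 0.73 and 1.11. Of these 3, Dmbt1 and Amotl1 did not pass without corpus replicate 4 (0.61 and -0.74), and Bpifb1 did not without corpus replicate 1 (-0.79) or 4 (-1.19) or any of pylorus replicates 1 to 3 (-0.90, -1.16 and -1.14).

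Genes of growth and of cell cycle exit also differed. Of 19 ribosome biogenesis genes tested, 11 rose and none fell, with a median log2 difference of 0.44. Nhp2, a protein of the box H/ACA particles that modify ribosomal RNA, had 143, 89.8, 56.9 and 52.8 CPM in cycling wells of the corpus plates and 122, 41.0 and 60.6 CPM in those of the pylorus plates, against 60.5, 22.8, 22.5 and 24.2 CPM and 36.6, 31.1 and 33.5 CPM in other wells. It rose by 0.92 ± 0.12 SE (adjusted p = 3.73e-04). Mrto4, a ribosome assembly factor, rose by 0.70 (adjusted p = 0.0254), Nop56, a core protein of box C/D particles, by 0.69 (adjusted p = 0.00183), and Pa2g4, a nucleolar growth regulator, by 0.67 (adjusted p = 1.42e-04). Mrto4 did not pass without corpus replicate 1 (0.64) or 3 (0.73) or pylorus replicate 3 (0.73). Of 16 genes of nucleotide synthesis, 8 rose and none fell, led by Impdh2, the rate-limiting enzyme of guanine nucleotides, at 0.88 ± 0.10 SE (adjusted p = 1.07e-04). In glycolysis 3 of 10 rose (Pgk1, Ldha and Tpi1) and 2 fell. Hk2, a hexokinase, fell by 0.77 (adjusted p = 0.0166), but did not pass without corpus replicate 3 (-0.65) or pylorus replicate 3 (-0.74). The summed ribosome and nucleotide lists were higher in cycling wells of 7 of 7 plates, also with wells thinned to 3000 UMIs, where Nhp2, Nop56, Pa2g4 and Impdh2 did not pass singly.

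The cyclin-dependent kinase inhibitors did not move together. Cdkn2c and Cdkn2d, inhibitors of the INK4 family, rose by 1.62 ± 0.25 SE (adjusted p = 0.00103) and 1.36 ± 0.19 SE (adjusted p = 6.79e-04). Whether these 2 rises follow from the choice of wells in the cycle was not tested. Cdkn1a, the p53 target p21, had 29.1, 5.61, 29.8 and 66.1 CPM in cycling wells of the corpus plates and 4.70, 76.4 and 86.0 CPM in those of the pylorus plates, against 68.7, 73.4, 87.7 and 110.2 CPM and 40.8, 82.9 and 94.999 CPM in other wells. It was lower in every plate and fell by 1.19 (adjusted p = 0.0224), but did not pass without corpus replicate 1 (-1.16) or 3 (-1.06). Its value in cycling wells of pylorus replicate 1 was 1 UMI. Without that plate Cdkn1a was at -0.81, and in the 4 deep plates alone at -0.69. Cdkn1c, p57, fell by 1.70 (adjusted p = 0.0356) and did not pass without corpus replicate 1 (-1.35) or 3 (-1.78) or pylorus replicate 3 (-1.89). Cdkn1b, p27, rose by 0.45 (adjusted p = 0.0169). Ccnd2, a D-type cyclin of G1, fell by 0.72 (adjusted p = 0.00236), and Ccnd1, another, was at 0.01 ± 0.10 SE. Btg1 and Btg2, antiproliferative factors, each fell by 0.50. Of 13 genes of a list of immediate early and stress genes, 6 fell and none rose, led by Dusp1, a phosphatase of MAP kinases, by 1.15 (adjusted p = 0.0215). Mitochondrial transcripts took 11.4% to 14.8% of UMIs in cycling wells and 11.6% to 21.3% in other wells, and their part in these differences was not tested. Of 10 mitochondrially encoded genes, 1 fell (mtNd5).

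Of genes on no list, the 12 with the largest rises were led by Aspm, a spindle pole protein, at 4.12 ± 0.24 SE, and Cep55, which acts at the end of cell division, at 3.94 ± 0.17 SE. Others among them were Esco2, Spc25, Ncapg, Shcbp1, Casc5, C330027C09Rik, Dlgap5, Sgol2 and Knstrn, and several are known for chromosome cohesion, condensation or spindle attachment. Genes of cell division follow the rule that chose the wells, so these rises are a description. The 12 largest falls held, besides Slc18a2 and Cpe, Gc, the vitamin D binding protein, at -3.89 ± 0.15 SE, Pnliprp1, a pancreatic lipase related protein, at -3.76 ± 0.43 SE, Nov, a secreted matricellular protein, at -3.55 ± 0.20 SE, and Cel, bile salt lipase, at -3.42 ± 0.22 SE. The other 6 were Pappa2, Meg3, Resp18, Serpina7, Vtn and Lrmp.

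Most single cycling wells stood high in no cell type list. Their median pit and neck levels after thinning were still above those of other wells in every plate. After thinning to 3000 UMIs, a well was taken as high in a list when it exceeded the 90th percentile of the other wells of its plate, so that about 10% of other wells are high by construction. Of 305 cycling wells deep enough, 10.2% were high in pit, 14.4% in neck and 3.61% in chief transcripts. In parietal transcripts 7.87% were high, in tuft 4.26% and in endocrine 1.64%, against 7.89%, 6.68% and 10.1% of other wells. None of the 8 cell type lists was high in 173 of the 305 (56.7%), against 774 of 1736 other wells (44.6%). No cycling well was high in both pit and chief transcripts, and 2 were high in both pit and neck. Such wells were also rare among the 1736 other wells, with 1 high in both pit and chief and 13 in both pit and neck. By the same measure, 24.6% of cycling wells and 8.18% of other wells were high in ribosome biogenesis transcripts. Only 2.62% of cycling wells were high in the isthmus and gland base stem list, against 8.35% of other wells. By replicate, the median cycling well held 123, 130, 134 and 162 pit UMIs in the corpus plates and 133, 248 and 139.5 in the pylorus plates. The median other well held 39, 7, 53 and 82, and 51, 74 and 61. For neck transcripts these medians were 59, 37, 30.5 and 16 with 54, 17 and 18 in cycling wells. In other wells they were 56, 2, 5 and 7 with 7, 8 and 6.5. Chief medians were lower in cycling wells of every plate. Endocrine medians were 1, 2, 4 and 4 with 1, 6 and 7 in cycling wells. In other wells they were 1, 10, 3 and 5 with 2, 8 and 7. These lay close together except in corpus replicate 2, while wells high in the endocrine list were rarer among cycling wells. All 5 such cycling wells lay in corpus replicate 1, where the cut was 3 UMIs. How much of the endocrine fall in the sums came from each was not tested.

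Cycling wells of the corpus plates were then set against those of the pylorus plates. No gene of 8602 passed in limma over the 3 corpus and 3 pylorus plates that held at least 10 cycling wells (0%, smallest adjusted p = 0.9998), with 148 at an unadjusted p under 0.05. With voom weights none passed and 220 were under 0.05, and without corpus replicate 1 limma again called none, with 178 under 0.05. Of all genes tested, 4.01% were higher in every corpus plate than in any pylorus plate, and 3.01% were lower in every one. The genes below were chosen after their values were seen and are a description. Among 6 regional factors tested, 2 lay higher in all 3 corpus plates of the fit (Nkx6-3 and Meis2) and 2 lower (Irx2 and Irx5).

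Nkx6-3, a homeobox factor known in mice from the antral epithelium, had 64.6, 0, 8.13 and 14.9 CPM in cycling wells of the corpus plates and 0, 0 and 0 CPM in those of the pylorus plates. It was found in 3 of 4 corpus plates and in no pylorus plate, highest in corpus replicate 1. In other wells it had 76.3, 0.542, 5.84 and 7.84 CPM in the corpus plates and 0.416, 0.179 and 0.274 CPM in the pylorus plates. Pitx1, a homeobox factor of posterior structures, had 59.0, 11.2, 9.94 and 6.15 CPM in cycling wells of the corpus plates and 42.3, 71.9 and 53.1 CPM in those of the pylorus plates, where corpus replicate 1 lay among the pylorus plates. Muc6 was higher in cycling wells of the corpus plates, as given above, by 1.95 ± 0.33 SE on the log2 scale (adjusted p = 0.9998). Corpus replicate 2, which was not in the fit, lay among the pylorus plates for Muc6.

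Il33, an alarmin cytokine, had 22.6, 14.0, 6.33 and 10.8 CPM in cycling wells of the corpus plates and 89.3, 149 and 45.6 CPM in those of the pylorus plates, with no overlap. In other wells it had 37.1, 1.81, 8.22 and 6.24 CPM and 60.8, 73.1 and 64.7 CPM, also without overlap. Bpifb1, a secreted antimicrobial protein, had 3.23, 0, 33.4 and 19.0 CPM in cycling wells of the corpus plates and 47.0, 121 and 207 CPM in those of the pylorus plates, again without overlap. With at least 8 rule genes, 2 of 7112 genes passed between the regions. This fit had 5 plates, without pylorus replicate 1, which held 7 such wells. The genes were Bpifb1 at -4.87 (adjusted p = 0.0220) and Pigr, the receptor that carries antibodies across epithelia, at -2.80 (adjusted p = 0.00631). With the same 4 deep plates alone, 2 of each region, 11 of 8979 genes were higher and 35 lower in corpus. Among them were Bpifb1 at -2.59, Il33 at -3.07, Pitx1 at -2.73, Esrrg at -1.77 and Muc6 at 1.60.

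**Figure D5:**
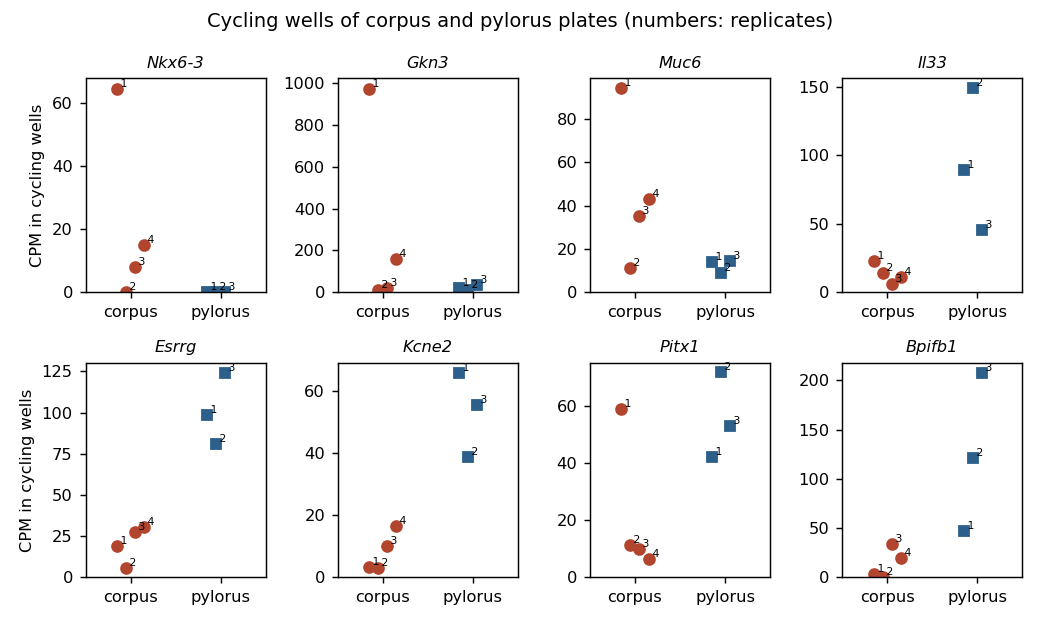
Each panel gives the CPM of 1 gene in cycling wells of each plate, corpus at left and pylorus at right, with replicate numbers beside the points. Nkx6-3 has no UMI in the pylorus plates, Il33, Esrrg, Kcne2 and Bpifb1 are lower in every corpus plate, and corpus replicate 1 stands apart from the other corpus plates in Gkn3, Nkx6-3 and Pitx1.

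Among 7 parietal genes tested, Kcne2 and Esrrg were lower in cycling wells of every corpus plate than of any pylorus plate. Kcne2, the potassium channel subunit of acid secretion, had 3.23, 2.81, 9.94 and 16.4 CPM in cycling wells of the corpus plates and 65.8, 38.8 and 55.4 CPM in those of the pylorus plates. In other wells it had 43.3, 13.7, 81.7 and 59.8 CPM and 18.3, 38.6 and 47.6 CPM, where the regions overlap. Esrrg, a nuclear receptor of parietal cells, had 18.6, 5.61, 27.1 and 30.2 CPM in cycling wells of the corpus plates and 98.7, 80.9 and 124 CPM in those of the pylorus plates, against 33.7, 17.0, 179 and 135 CPM and 28.3, 69.5 and 106 CPM in other wells. Both genes were lower in cycling than in other wells of all 4 corpus plates and higher in cycling than in other wells of all 3 pylorus plates, by little for Kcne2 in pylorus replicate 2. The test of that difference between differences called none of 9447 genes (0%, smallest adjusted p = 0.951, 367 at an unadjusted p under 0.05). Kcne2 was at -3.20 ± 0.55 SE and Esrrg at -2.59 ± 0.57 SE. With voom weights 4 genes passed, Esrrg, Kcnq1, Kcne2 and Prss23, at log2 values of -2.64, -1.35, -2.84 and -2.31. Of the 9 cycling wells rich in Atp4a and Atp4b, 2 lay in corpus replicate 4, 4 in pylorus replicate 2 and 3 in pylorus replicate 3, and their part in these values was not tested.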

How the data were processed

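Per the labels, glands were isolated from wild-type C57BL/6 stomachs, dissociated, and sorted as single cells into 7 plates of 384 wells for CEL-seq2 (4 corpus, 3 pylorus). The values, as deposited, are unnormalized UMI counts for each gene in each well. Because of the tables' layout their unit could not be checked as counts, and limma on log values was used in place of a count model. The submitters' processing notes name the genome build mm9; the aligner, the counter and its strand setting are not stated in the labels or files used. All plates use the same 384 well names, which are positions and not shared cells.

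Wells with at least 1000 UMIs without spike-ins were kept. No doublet caller was run. UMIs were summed per plate over cycling and over other wells, scaled by TMM, taken as log2(CPM + 2), and fitted with limma 3.58.1 in R 4.3.3 with the trended variance: cycling against other wells with plate as a block, and corpus against pylorus. Plates with fewer than 10 cycling wells were left out of the fits (corpus replicate 2), as were genes under about 10 counts at the median library. For cycling against other wells, a gene had to reach this in as many sums as there were plates. The sums over cycling wells alone could therefore admit it. "Passed", "rose" and "fell" mean a Benjamini-Hochberg adjusted p under 0.05 over all genes tested. Fold changes of low genes are understated on this scale. Shares were compared by an exact permutation test over plates (scipy 1.17.1). Wilson intervals and floors cover counting error only, since plates and not wells are the replicates.

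Members and gene lists were chosen with earlier results of these data known. Named by rule were the 10 rule genes, up to 4 passing members of each list and the 12 largest changes per direction outside them. Other genes were named after their values were seen. Alternatives changed the scaling, pseudocount, filter, weights, rule, well depth and plates used.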

Additional observations from a re-analysis of the deposited data

Results flagged for a closer look

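The share of cycling wells after thinning to 3000 UMIs was 21.2% in corpus replicate 1, against 1.18%, 2.56% and 3.40% in corpus replicates 2 to 4, and its gap to the nearest plate was large for a group of 4. The pit list summed to 93150.2 CPM in cycling wells of corpus replicate 4, against 52985 to 59287 in those of the other 3 corpus plates, and was picked out in the same way. The comparison was made for 26 values, of which 2 stood out, and chance picks out about 1 in 20 groups.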

How the results depend on the processing

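The difference in share between corpus and pylorus plates ranged from -4.24 to 4.64 points when a plate was left out, was -4.57 points in the 4 deep plates (exact permutation p = 0.667) and 0.423 points with the replicate block (exact p = 1). Genes that passed between cycling and other wells numbered 2102, and 1344 to 2408 with a plate left out (772 to 1275 higher, 569 to 1133 lower). They numbered 254 with thinned wells (67 higher, 187 lower), 561 without wells holding immune or mast genes (269 higher, 292 lower, in 4 plates) and 994 without the plate block (561 higher, 433 lower). With total UMIs as the scale 1646 were higher and 657 lower, and with at least 8 rule genes 1576 were lower. Between the regions 0 passed with any plate left out, and 2 of 7112 with at least 8 rule genes (an alternative chosen after seeing the data). In the 4 deep plates 46 of 8979 passed. Without immune or mast wells 1 passed (Gkn3), and 1 with the replicate block (Sst). The difference of differences gave 4 with voom weights. The replicate numbers were not taken as pairs: deviations of same-numbered plates correlated at 0.449, -0.230 and 0.311 in cycling wells and 0.605, 0.0521 and 0.550 in other wells, so not every pair passed 0.1. Corpus replicate 3 correlated best with pylorus replicate 2 in cycling wells (0.333) but with pylorus replicate 3 in other wells. Thinning moved the median of all genes by -0.51, and values after it are to be read against a median of -0.56. Values turned sign for Muc5ac with thinned wells (-0.15, above that median). For Tff1 they did with at least 6 rule genes (-0.056), thinned wells (-0.34, also above that median) and no immune or mast wells (-0.10), and with a plate left out they ranged from -0.073 to 0.19. Gkn1 turned with at least 3 rule genes (0.28, in 7 plates), in the 4 deep plates (0.12), against wells with none of the genes (0.19) and ranged from -0.45 to 0.0030 with a plate left out. Gkn2 turned under the first 3 of these (0.25, 0.076 and 0.11), and Pitx1 with thinned wells (-0.65). Other causes were not tested. Over 54 named genes and all settings, 821 values kept direction and side of the threshold, 141 no longer passed, 22 newly passed and 15 turned. Depth limits rare transcripts: 1 UMI is 0.376 to 4.70 CPM in the sums over cycling wells.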
